A study of Mus musculus with 11 samples.

Results

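The cytosolic ribosomal protein genes were taken as every gene symbol of the count tables that begins with Rpl or Rps and a digit, with Rplp0, Rplp1, Rplp2 and Rpsa added, and with the Rps6k kinases and the symbols containing "-ps" left out. This gave 87 of 27998 genes, 53 named for the large subunit (Rpl) and 34 named for the small subunit (Rps). The rule left out 16 "-ps" symbols and 10 Rps6k symbols. Of the 87 members, 85 reached 20 UMIs in each 1000000 of a library (CPM) in at least 1 library and 84 reached it in every library, while Rpl10l and Rpl39l stayed below it throughout. The members do not all encode ribosomal proteins. Rps19bp1 encodes a nucleolar protein that binds Rps19 and never exceeded 0.0596% of the members' summed counts, and Rpl6l is annotated as a processed pseudogene.

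The libraries hold single macrophages (macs) sorted from C57Bl/6 mice and counted by unique molecular identifiers (UMIs), which count captured mRNA molecules near their 3' end. There were 11 libraries, 1 per tissue and genotype, from microglia of the brain, colonic macs (CMs), Kupffer cells of the liver (KCs), alveolar macs of the lung (AMs) and splenic macs (SMs). In each tissue a Zeb2fl/fl library, called WT, was set beside a library from mice that also carry a Cre, called Zeb2KO after its label, in which the floxed gene of the transcription factor ZEB2 is deleted where the Cre is active. The liver had a further control, a library from Nr1h3fl/fl mice (Nr1h3fl/fl WT KCs), whose floxed gene is a different one. Fcgr1-cre is the Cre on every Zeb2KO label, but the methods describe Clec4f-cre for KCs and Itgax-cre for AMs. By the study, Zeb2KO libraries outside the brain also held cells that had kept a Zeb2 allele. The labels give no ages, and the methods describe young adult mice of both sexes unless stated otherwise.

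Each ribosome joins a large and a small subunit, and each subunit is built from ribosomal RNA and a fixed set of proteins, most of them present as a single copy. The mRNAs of these proteins are among the most abundant of a cell. Their 5' ends carry a short run of pyrimidines after an initial C, the terminal oligopyrimidine (TOP) motif, through which mTOR signalling sets their translation together. A few genes have paralogs whose products can take the place of the usual protein in the ribosome, such as Rpl3l, known from heart and skeletal muscle, and Rpl39l, known from testis.

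The module is a mix of very short and much longer genes. In the GENCODE M21 annotation (GRCm38) the 87 members lay on 19 chromosomes, and the coding sequences of 86 of them ranged from 78 to 1260 bases with a median of 456. Some of the shortest reading frames are shown because the members with the lowest ratios between libraries were among them. They are printed with the start and stop codons in capitals, after the position of the gene.
Rpl41 (ENSMUSG00000093674, chr10:128548114-128549305, minus strand): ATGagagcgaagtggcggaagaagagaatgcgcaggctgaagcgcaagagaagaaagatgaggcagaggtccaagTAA
Rps28 (ENSMUSG00000067288, chr17:33819027-33824562, minus strand): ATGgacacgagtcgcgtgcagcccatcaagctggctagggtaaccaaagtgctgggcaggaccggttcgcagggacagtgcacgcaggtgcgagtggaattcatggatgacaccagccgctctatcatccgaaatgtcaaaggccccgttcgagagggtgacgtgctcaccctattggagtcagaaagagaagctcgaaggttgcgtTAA
Rpl38 (ENSMUSG00000057322, chr11:114668524-114672331, plus strand): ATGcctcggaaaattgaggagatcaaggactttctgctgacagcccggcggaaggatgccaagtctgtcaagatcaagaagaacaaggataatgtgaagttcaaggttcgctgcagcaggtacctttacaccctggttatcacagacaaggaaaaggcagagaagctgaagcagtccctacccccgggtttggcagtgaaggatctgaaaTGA
Rpl37a (ENSMUSG00000046330, chr1:72711290-72713813, plus strand): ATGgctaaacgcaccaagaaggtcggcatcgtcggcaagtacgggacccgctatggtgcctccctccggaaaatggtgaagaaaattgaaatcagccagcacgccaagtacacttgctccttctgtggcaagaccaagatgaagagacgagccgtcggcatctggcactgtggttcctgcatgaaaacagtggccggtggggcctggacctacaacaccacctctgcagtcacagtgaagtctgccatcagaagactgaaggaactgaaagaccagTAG

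The start sites show what many members share beyond their name. RefSeq promoter sequences (GRCm38.p6) were matched for 66 of the 87 members. A run of at least 6 bases, a C followed only by C or T on the sense strand, lay within 10 bases of the annotated start in 30 of these 66 (45.5%) and in 4279 of 27025 symbols of the table (15.8%). The windows below reach from 10 bases before to 10 bases after the start, with the run in capitals. They show longer members with a run, then short members and paralogs with and without a run. Other longer members, such as Rplp0 and Rps3, had none.
Rps6 (chr4:86857357-86857377, minus strand): gaagtcgggCCTCTTTTTCgt
Rps18 (chr17:33955655-33955675, minus strand): cacttccgCTCTCTCTTCCac
Rpl38 (chr11:114668570-114668590, plus strand): aagcctcgttCTTTCCCCgtt
Rps28 (chr17:33824552-33824572, minus strand): cgcgtgcggtctcgcgagagc
Rpl22l1 (chr3:28805498-28805518, plus strand): gcgcaagcccgttCTCTTCCC
Rpl36al (chr12:69184057-69184077, minus strand): ccgtcgctcaggttcagttcc
Rpl7l1 (chr17:46782646-46782666, minus strand): gctgcgcaagcgcagtagctg
The matching describes these letters only, and the annotated start can differ from the start used in a mac.

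After the filter on cells and the removal of clusters that met a marker rule for other cell types, 2830 to 6974 cells and 8142329 to 43299021 UMIs were kept per library. Among kept clusters with leading genes of other cells were spleen cluster 7 (B cell genes such as Pax5, 206 WT and 142 Zeb2KO cells, module share 18.4% and 19.3%), liver cluster 8 (endothelial genes such as Kdr, 179 and 84 cells) and colon cluster 13 (smooth muscle genes such as Myh11, 39 and 30 cells), and leaving them out changed no direction of the module share. Spleen cluster 5, led by S100a8 and S100a9, known from neutrophils, was kept too, with 7 WT and 688 Zeb2KO cells, although the 8 neutrophil markers summed to 368 CPM in WT SMs and 249.9 in Zeb2KO SMs. All 10 general mac markers were detected in every library, and at least 8 of the 10 reached 20 CPM. The removed clusters took 22.5% of the filtered WT SMs and 15.4% of the Zeb2KO SMs, but at most 12.2% elsewhere and none in the brain. Pairs of libraries shared 14 to 76 barcodes, at most 1.45% of the smaller library. Zeb2 UMIs were higher in the Zeb2KO library of each tissue, for instance 1747 against 475 CPM in microglia, but the counted 3' tags need not lie in the deleted part and check nothing about the deletion. Mitochondrially encoded genes took 1.08% of the UMIs of WT microglia and up to 8.22% of those of WT SMs. Within libraries, the module share of a cell had a Spearman rho with its UMIs of -0.07 to 0.52. With 1 library per tissue and genotype there was no replicate spread within a tissue, and intervals cover counting error only.

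In WT macs the module took between 8.68% and 16.1% of all UMIs. It was lowest in microglia, at 8.68% (exact 95% binomial interval 8.67 to 8.70). WT KCs stood at 13.3% (13.30 to 13.33) and WT SMs at 13.4% (13.33 to 13.38). WT AMs reached 15.6% (15.62 to 15.64) and WT CMs 16.1% (16.09 to 16.12). The Nr1h3fl/fl WT KCs, at 14.1%, lay further from the WT KCs than the WT SMs did, so the order of KCs and SMs does not go beyond the difference between control libraries of 1 tissue. WT AMs and WT CMs also lay closer together than the control livers did, so their order does not go beyond it either. The order of tissues also rests on which cells are counted, since all barcodes gave 16.5% in the WT spleen, where B cell-like cells were then included. Microglia were the lowest of the 5 WT libraries for 56 of the 85 members that reached 20 CPM and SMs for 27. CMs were the highest for 47 and AMs for 23.

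**Figure D1:**
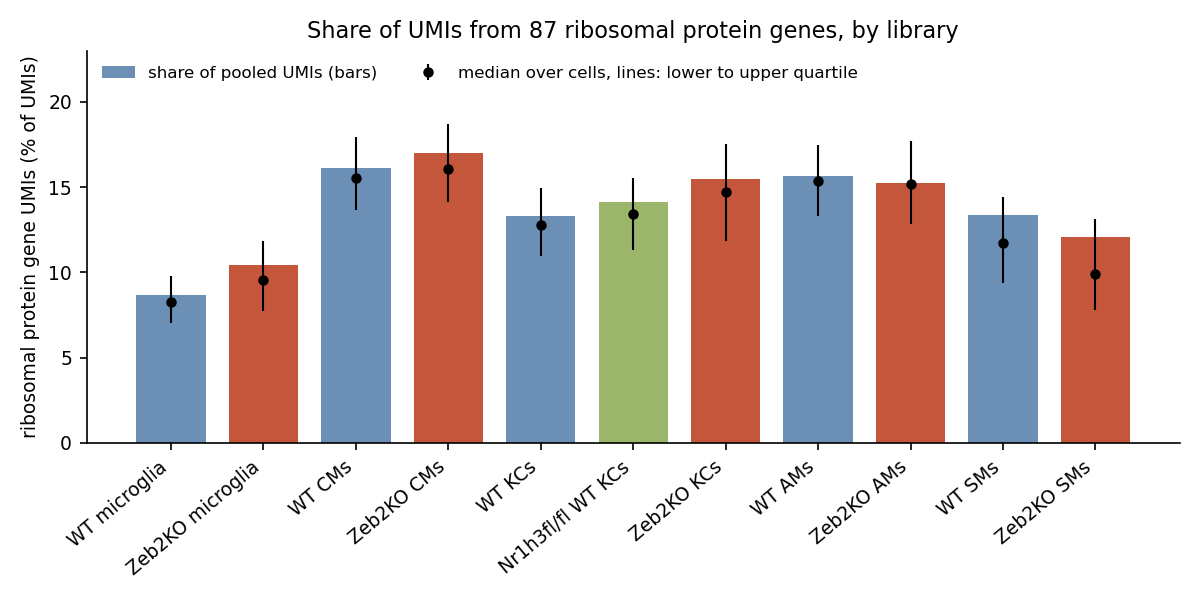
Bars show the share of all UMIs that came from the 87 ribosomal protein genes in each library (percent), points the median over cells and lines the lower to upper quartile over cells. Blue is Zeb2fl/fl WT, red Zeb2KO and green the Nr1h3fl/fl control, and microglia stand lowest at 8.68% and 10.4%.

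Between genotypes the share differed by less than between the extremes of the tissues. In microglia it was 8.68% in WT and 10.4% in Zeb2KO, a log2 ratio of the shares of 0.26. In KCs it was 13.3% and 15.5% (log2 ratio 0.22), with the Nr1h3fl/fl WT KCs between them at 14.1%. Both differences were smaller without 1 cluster, nearly all of it WT cells, that was led by haemoglobin genes such as Hba-a1. Without brain cluster 2, which held 45.9% of WT and 0.339% of Zeb2KO microglia at a share of 8.07% and 8.04%, the log2 ratio was 0.16. Without liver cluster 1, which held 56.9% of WT and 2.56% of Zeb2KO KCs at 12.1% and 12.6%, it was 0.0015. Leading genes of that cluster also included Clec4f and Timd4, known from KCs, so most WT KCs were then left out. The 9 erythroid markers summed to 609.7 CPM in WT and 39.998 in Zeb2KO microglia, with 3 and 4 of them at 0. In KCs they summed to 215 CPM in WT, 6.01 in Zeb2KO and 78.1 in the Nr1h3fl/fl control, with 3, 2 and 3 at 0. The part of erythroid RNA in these differences was not tested. The CMs, at 16.1% and 17.0%, had a log2 ratio of 0.077. Colon cluster 8, also led by haemoglobin genes, held 340 WT and 71 Zeb2KO cells at a share of 17.5% and 16.8%, not a low share as in the brain and liver clusters. The share was lower in Zeb2KO SMs, at 12.1% against 13.4% (log2 ratio -0.15, or -0.25 without spleen cluster 5), and nearly level in AMs, at 15.3% against 15.6% (log2 ratio -0.034). The medians over single cells took the same order in each tissue, with 8.23% and 9.57% in WT and Zeb2KO microglia and 11.7% and 9.93% in WT and Zeb2KO SMs. The quartile ranges of WT and Zeb2KO cells overlapped in each of the 5 tissues.

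The cells differed by cluster as much as by genotype. In the colon, the cells of cluster 5, led by Hp, AF067061 and Ms4a1, numbered 740 in Zeb2KO and 23 in WT, and their module share was 21.9% and 21.0%. Without that cluster the shares were 15.8% in Zeb2KO CMs and 16.1% in WT CMs, so the direction of the colon difference turned. The study identified CMs that had lost Zeb2 by higher Ms4a1, among other genes, so this step leaves out cells with that mark. Compared cluster by cluster, the share was higher in Zeb2KO in 7 of 10 colon clusters with at least 50 cells in both libraries. Cluster 7, another cluster of high share, held 373 WT and 68 Zeb2KO cells, and without clusters 5 and 7 the shares were 15.7% in both libraries. That cluster, led by Ear2 and Ccr2, the chemokine receptor of recently arrived monocytes, stood at 22.4% in Zeb2KO and 20.2% in WT cells, while 6 larger clusters lay between 14.4% and 16.5%. In the liver, a cluster led by Alox15 and Prg4, genes known from peritoneal macs, had 22.5% and 22.1%. Clusters of B cell-like cells were among the highest, with 36.9% and 33.4% in the spleen and 25.1% and 22.6% in the liver for Zeb2KO and WT. In the erythroid cell-like cluster of the spleen the share was 6.76% in Zeb2KO and 11.2% in WT.

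The difference in the liver was compared within clusters too. Across the 10 liver clusters with at least 50 cells in both libraries, the module share was higher in Zeb2KO in 9, by log2 ratios from -0.05 to 0.29. The largest of these differences was in the endothelial cell-like cluster, at 15.03% against 12.3%. That cluster and the B cell-like one were not among the kept cells, but their mac markers had mean log2 ratios of only -0.63 and -0.81 against the other liver cells, and no doublets were removed, so whether they held cells other than KCs was not tested. With all filtered cells the KC log2 ratio was 0.21. Between the WT livers, 7 clusters had at least 50 cells in both libraries. The module share was higher in Nr1h3fl/fl WT KCs in 6 of them, with log2 ratios from -0.0037 to 0.21. In the lung 1 of 4 such clusters was higher, with log2 ratios from -0.11 to 0.07. In the colon 7 of 10 were higher in Zeb2KO, with log2 ratios from -0.08 to 0.15. Among the 7 was the fibroblast-like cluster 9, which was not among the kept cells. In the spleen 2 of 6 were higher and the range was wide, from -0.72 to 0.14. Its ends were the erythroid cell-like and B cell-like clusters, which were not among the kept cells. The kept clusters ran from -0.45 in cluster 3 to 0.07 in cluster 7. In the brain no cluster held 50 cells of both libraries. The nearest was cluster 6, with 77 WT and 47 Zeb2KO cells at shares of 10.6% and 12.4%. The 3 WT brain clusters of at least 50 cells had shares of 8.07% to 10.6% and the 4 Zeb2KO clusters 9.74% to 11.2%.

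Taken gene by gene, 3 members passed a log2 ratio of 1 in size, and all 3 were lower in Zeb2KO AMs. Ratios are given as log2 of Zeb2KO over WT on CPM plus 1, for genes that reached 20 CPM in either library of a pair. In microglia no member reached a log2 ratio of 1 in either direction, a size reached upward by 4.27% and downward by 4.07% of all genes compared. No member of the CMs reached it (1.07% and 0.487% of all genes), none of the KCs (3.36% and 1.15%) and none of the SMs (2.33% and 0.858%). In AMs no member was higher by that size and 3 were lower, Rps28, Rpl41 and Rpl37a, where 4.35% of all genes were higher and 7.33% lower. Between the WT livers none of the members reached it, against 0.487% of genes higher and 0.847% lower in Nr1h3fl/fl WT KCs.

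At a log2 size of 0.5 the members separated further. In microglia 2 of 84 members were higher and none was lower, beside 9.78% and 12% of all genes. No member of the CMs passed this size, beside 4.2% of genes higher and 2.39% lower. In KCs 5 were higher and 1 was lower, beside 8.89% and 5.55%. Of the 85 members compared in AMs, 8 were higher and 11 lower, beside 9.17% and 34%. In SMs none passed, beside 7.45% and 5.07%. Between the WT livers 4 were higher and 4 lower in Nr1h3fl/fl WT KCs, beside 13.2% and 4.54%. The members past this size were a smaller share than among all genes, except for the higher members of AMs and the lower members between the WT livers, whose shares were close to the background. This rests on the scaling and the control: 24 members of AMs were higher with TMM scaling, beside 14.998% of all genes, and 19 members of KCs were higher against the Nr1h3fl/fl control, beside 13.8%.

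The module was uniform in some tissues and spread out in others. The interquartile range of the members' log2 ratios was narrowest in CMs, at 0.077, followed by 0.15 for microglia and 0.18 for SMs. KCs had 0.29 and AMs 0.52. Over the other genes compared, these ranges were 0.24, 0.42, 0.38, 0.35 and 0.66 in the same order, wider than that of the members in each tissue. Between the WT livers the range was 0.37 over the members, wider than in KCs, and 0.52 over the other genes. Among other genes as abundant as most members, the ranges in that order of tissues were 0.24, 0.52, 0.44, 0.41 and 0.73. Between the WT livers this matched range was 0.40, close to that of the members. In microglia 78 of 84 members were higher in Zeb2KO, with a median log2 ratio of 0.25 against -0.10 for the other genes. In CMs 72 were higher (median 0.08, other genes 0.05), and in KCs 70 (median 0.27, other genes 0.01). In SMs 21 were higher and 63 lower (median -0.10, other genes -0.02). In AMs 51 of 85 were higher and 34 lower, with a median of 0.11 against -0.31 for the other genes, and scaling by trimmed mean of M-values (TMM) made 64 of them higher. Between the WT livers 43 of 84 were higher in Nr1h3fl/fl WT KCs with total UMIs and 33 with TMM. Large- and small-subunit genes had like medians, of 0.25 and 0.27 in microglia and 0.11 and 0.10 in AMs.

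**Figure D2:**
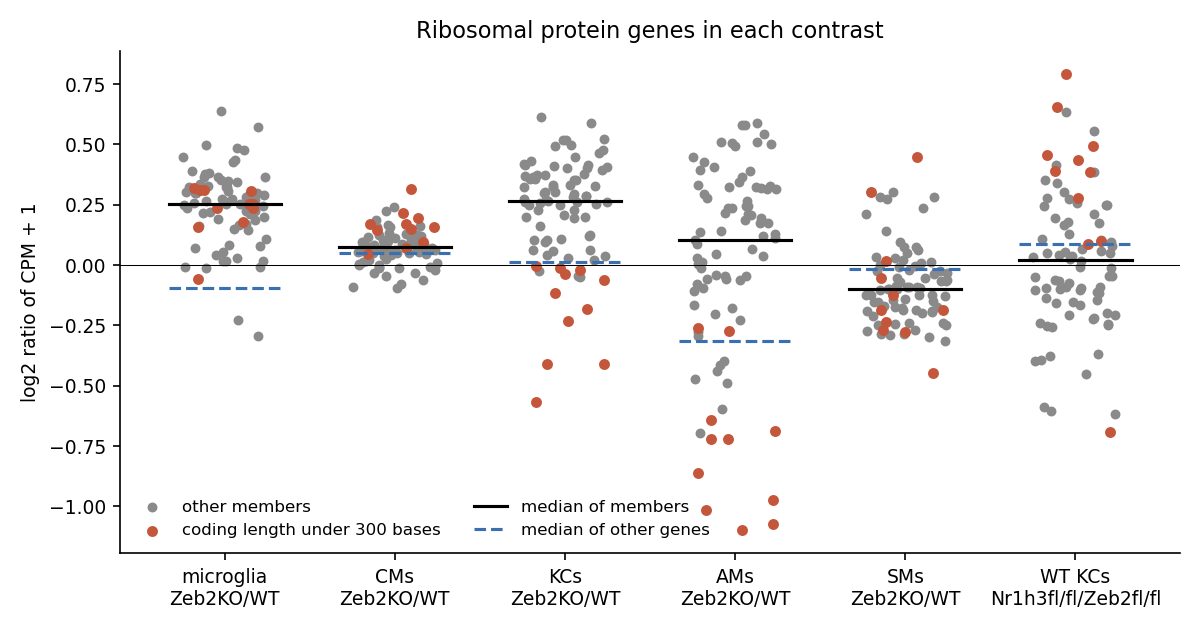
Each dot is 1 ribosomal protein gene and its height the log2 ratio of CPM plus 1 in the contrast named below it. Red dots are the 11 members with a coding length under 300 bases, black lines the median of the members and dashed blue lines the median of all other genes, and in KCs and AMs the red dots lie below 0 while most grey dots lie above it.

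The members differed among themselves by length. Members whose coding sequence is under 300 bases, a limit chosen after the values were seen, numbered 11 among those that reached 20 CPM: Rpl41, Rpl39, Rps29, Rps28, Rpl38, Rps21, Rps27, Rps27l, Rps27rt, Rpl37a and Rpl37. In AMs all 11 were lower in Zeb2KO, with log2 ratios from -1.10 to -0.26 and a median of -0.72, while 51 of the other 74 members were higher (median 0.16). In KCs all 11 were lower, with log2 ratios from -0.57 (Rps27rt) to -0.0036 and a median of -0.12, so some were nearly level. Of the other 73 members, 70 were higher in KCs (median 0.29). The short members went the opposite way in CMs, where all 11 were higher (median 0.16, other members 0.07). They followed the rest in microglia, where 10 of 11 were higher (median 0.25, other members 0.26). In SMs 8 were lower (median -0.18, other members -0.10). TMM scaling moved the median of all genes by 0.21 in AMs and left all 11 short members lower in AMs and in KCs.

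The same split appeared between control libraries. In Nr1h3fl/fl WT KCs over WT KCs, which carry no Cre in either label, 10 of the 11 short members were higher (median log2 ratio 0.39), while the other members had a median of -0.05. Mitochondrially encoded genes took 4.78% of the UMIs of the Nr1h3fl/fl WT KCs and 2.92% of those of the WT KCs, and their part in this split was not tested. Across members, Spearman's rho of the log2 ratio with coding length was 0.71 in KCs (83 members), 0.60 in AMs (84 members) and -0.67 between the WT livers (83 members). It was -0.58 in CMs, -0.27 in microglia and 0.20 in SMs. Over the other genes of all lengths it was -0.01 in KCs, -0.33 in AMs and 0.42 between the WT livers. The other genes under 300 coding bases had a median of -0.12 in KCs and 0.12 in CMs, the direction and about the size of the short members, but -0.21 in AMs, 0.05 between the WT livers, -0.12 in microglia and 0.20 in SMs. These are descriptions across genes that share 1 pair of libraries and are not independent, and the KC contrast and the contrast of WT livers share the WT KC library. With the transcript length in place of the coding length, rho over the members was 0.53, 0.44 and -0.43 in KCs, AMs and WT livers.

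**Figure D3:**
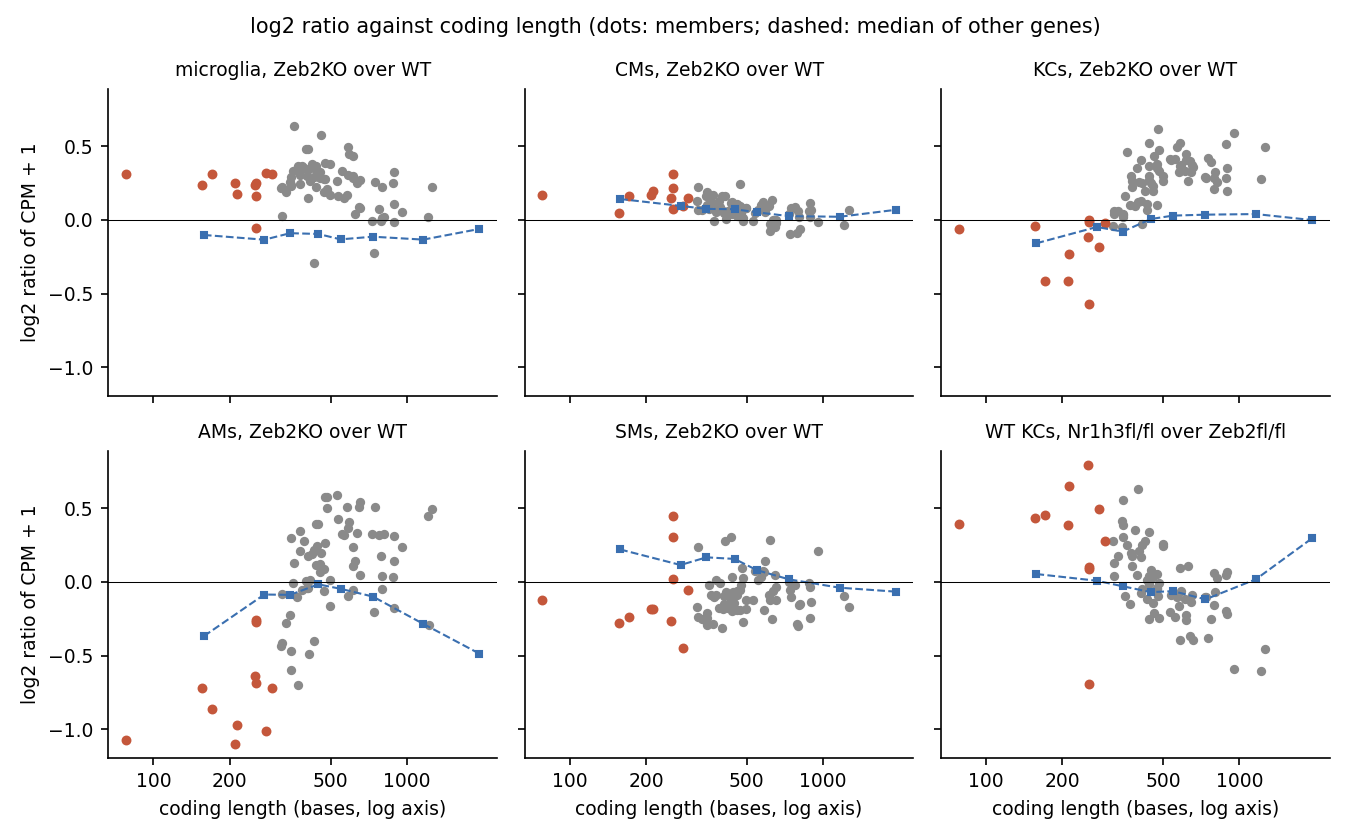
Each panel plots the log2 ratio of CPM plus 1 against coding length in bases on a log axis for the ribosomal protein genes (dots, red under 300 bases) and the median of the other genes in bins of coding length (blue dashed). The dots rise with length in KCs and AMs (rho 0.71 and 0.60), and fall between the WT livers (rho -0.67). In KCs the blue line also rises, from -0.158 under 250 bases to 0.0398 at 900 to 1500 bases.

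Rps28, a small-subunit protein, had the lowest ratio in AMs, at 2847 CPM in WT and 1329 in Zeb2KO (log2 ratio -1.10). In KCs it stood at 1429 and 1075 CPM, with 1867 in the Nr1h3fl/fl WT KCs. Its levels in WT and Zeb2KO were 744 and 886 CPM in microglia, 1765 and 1986 in CMs, and 3795 and 3332 in SMs. The level of Rps28 in Zeb2KO was therefore lower in 3 tissues and higher in 2, and among WT libraries microglia were lowest and SMs highest.
Rpl41, the shortest member and a very basic peptide of the large subunit, was at 7539 CPM in WT AMs and 3581 in Zeb2KO AMs (log2 ratio -1.07). It was nearly level in KCs, at 3409 CPM in WT, 3268 in Zeb2KO and 4468 in the Nr1h3fl/fl control. The other tissues had 1424 and 1766 CPM in microglia, 3621 and 4072 in CMs, and 5721 and 5249 in SMs, WT before Zeb2KO. Only the AMs separated WT from Zeb2KO by more than the control livers differed for this gene.
Rpl37a, a zinc-binding protein of the large subunit, was at 6051 CPM in WT AMs and 2996 in Zeb2KO AMs (log2 ratio -1.01). It was also the lowest member in SMs, at 6780 CPM in WT and 4974 in Zeb2KO (log2 ratio -0.45). In the liver its levels were 3425 CPM for WT, 3018 for Zeb2KO and 4815 for the Nr1h3fl/fl control, so the controls differed by more than the genotypes.
Rps29, another zinc-binding protein of the small subunit, was at 4157 CPM in WT AMs and 2287 in Zeb2KO AMs, at 5855 and 4403 in KCs and at 8023 in the Nr1h3fl/fl control. In SMs it reached 11235 CPM in WT and 9534 in Zeb2KO, far above the 3419 and 4237 CPM of microglia. Across the 11 libraries its log2 level had a Pearson correlation of 0.03 with the summed level of the other members, the lowest among the short members.

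Of the longer members, 51 of 74 were higher in AMs and 23 lower, and 70 of 73 were higher in KCs. The large-subunit gene Rpl29 was at 629.95 CPM in WT AMs and 941 in Zeb2KO AMs (log2 ratio 0.58). Rplp0, which anchors the P stalk of the large subunit to which elongation factors bind, was at 1298 CPM in WT KCs and 1951 in Zeb2KO KCs (log2 ratio 0.59). Its level in the Nr1h3fl/fl control was 862 CPM, so the control livers differed by as much as the genotypes did. Rplp0 was also among the 5 members with the widest range over WT tissues, of those at 20 CPM or more in each, from 363 CPM in SMs to 2035 in CMs.

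The lower share of short members in Zeb2KO AMs and KCs was also found within clusters. The methods name 1 kit and 1 mapper for all tissues but an earlier Cell Ranger release for KCs and AMs than for the other macs, and they give no insert sizes. The part of these in a split by length was not tested. The share of the 11 short members in the module's UMIs was 22.3% in WT AMs and 12.9% in Zeb2KO AMs, and 17.7%, 13.3% and 22.1% in WT, Zeb2KO and Nr1h3fl/fl WT KCs. In the lung it was lower in Zeb2KO in all 4 clusters with 50 cells of both libraries, by log2 ratios of -0.70 to -0.47. Most AMs lay in clusters of 1 genotype: cluster 0 held 56.7% of WT and 0.876% of Zeb2KO AMs, at 23.1% and 16.6%, and cluster 1 held 58.99% of Zeb2KO AMs, at 12.4%. In dividing AMs it was 21.4% in WT and 13.2% in Zeb2KO cells. In the liver it was lower in all 10 shared clusters, by -0.45 to -0.20, which do not include cluster 2 with 41.9% of Zeb2KO KCs, at 13.5%. Among these, the B cell-like cluster went from 16.2% to 12.8% and the endothelial cell-like cluster from 17.5% to 13.6%. Over whole libraries the log2 ratio was -0.41 in KCs, within the range of the liver clusters, and -0.79 in AMs, larger than in any shared lung cluster. Between the WT livers the short members' share also differed within clusters. It was higher in Nr1h3fl/fl WT KCs in 6 of 7 clusters with 50 cells of both libraries, with log2 ratios from -0.04 to 0.34.
In the colon the short members' share was 16.0% in WT and 16.7% in Zeb2KO, and 9 of 10 clusters were higher in Zeb2KO, by log2 ratios of at most 0.12. In the spleen it was 31.4% and 30.2%, the highest of the study, and 5 of 6 clusters were lower in Zeb2KO, by log2 ratios down to -0.09. B cell-like cells of the spleen, at 25.7% in WT, stood well above those of the liver, at 16.2% in WT. Microglia had 14.8% and 14.96%.

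**Figure D4:**
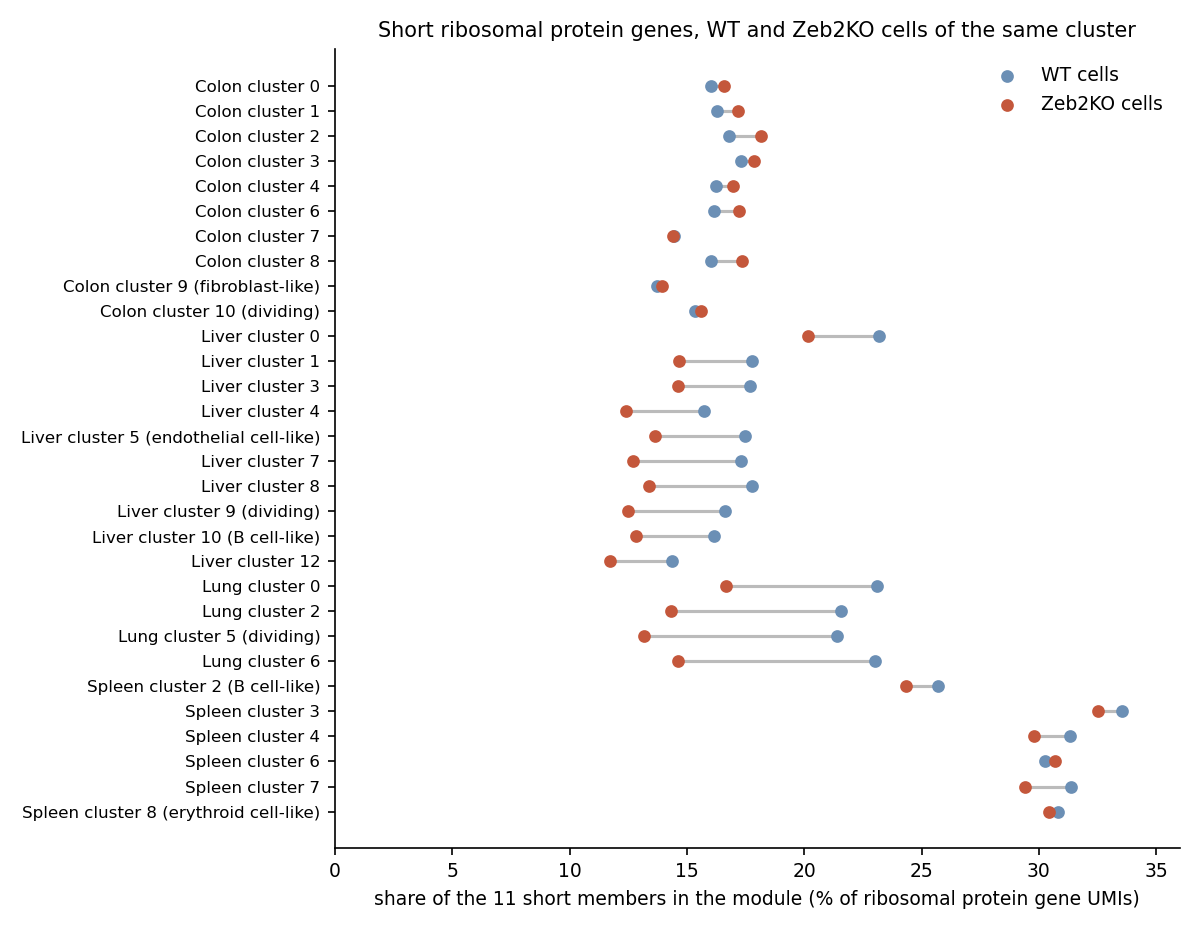
The share of the 11 short members in the ribosomal protein gene UMIs (percent, horizontal axis) is plotted for WT (blue) and Zeb2KO (red) cells of each cluster with at least 50 cells in both libraries. All 10 liver clusters and all 4 lung clusters lie lower in Zeb2KO, among them the B cell-like and endothelial cell-like clusters of the liver.

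In AMs the total against which CPM is set also differed. The summed level of 8 neutrophil markers went from 47.4 CPM in WT AMs to 23792 in Zeb2KO AMs, most of it from S100a8, at 22.9 and 14194 CPM. Of these markers, 4 were at 0 in WT AMs and 2 in Zeb2KO AMs, while the 9 alveolar mac markers summed to 9975 and 24084 CPM with none at 0. With TMM scaling, 24 members were higher and 7 lower by a log2 ratio of 0.5 in AMs, where total UMIs gave 8 and 11, and none was lower by a log2 ratio of 1. Under that scaling 14.998% of all genes were higher and 18.7% lower by 0.5, and the log2 ratio of the module turned to 0.18. Leaving the 50 most abundant other genes out of the total turned the module's log2 ratio in AMs from -0.034 to 0.068. The part of these genes in the AM values was not tested beyond this.

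In microglia the highest ratios were those of 3 small-subunit genes. Rps20, which lies in the small-subunit head, was at 809 CPM in WT and 1260 in Zeb2KO (log2 ratio 0.64). Rps18 followed with 1009 and 1502 CPM (0.57), and Rps7 with 935 and 1318 CPM, just under a log2 ratio of 0.50. Each of these was also higher in Zeb2KO KCs, with Rps7 at 1338 and 1923 CPM there. The lowest in microglia were members outside the core set, Rps19bp1 at 51.7 and 42.0 CPM (log2 ratio -0.29), Rpl7l1 at 114 and 97.0 CPM (-0.23) and Rps27l at 181 and 173 CPM (-0.06).
In CMs the extremes were small. Rps27rt was highest, at 135 and 168 CPM (log2 ratio 0.31), followed by Rps27a, which encodes a fusion of ubiquitin with a small-subunit protein, at 2692 and 3185 CPM (0.24), and Rpl36al, at 669 and 782 CPM (0.22). Rps4x, Rpl7l1 and Rpl15 were lowest, with log2 ratios of -0.09, -0.09 and -0.08.
In SMs Rps27rt (log2 ratio 0.45), Rps27l (0.30) and Rps19bp1 (0.30) were highest, and Rpl37a (-0.45), Rps12 (-0.31) and Rps3a1 (-0.30) lowest. Rps12, a small-subunit protein, had 2166 CPM in WT SMs and 1743 in Zeb2KO SMs.
Between the WT livers, Rps21 (0.79), Rpl38 (0.65) and Rps12 (0.63) were higher in Nr1h3fl/fl WT KCs, and Rps27rt (-0.69), Rpl6l (-0.62) and Rpl3 (-0.60) lower. These control differences were as large as those at the extremes of Zeb2KO against WT in KCs.

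Over the 5 pairs together, with the tissue as a block, edgeR's quasi-likelihood test with Benjamini-Hochberg adjustment called none of the 86 members tested, and it called 0% of all 14127 genes at an adjusted p under 0.05. Without adjustment, 3 members and 1593 genes had a p under 0.05. DESeq2 on the same design called none of the members either, but 2.67% of 13301 genes. The lowest edgeR p values among members were those of Rpl6l, with a log2 fold change of 0.32 ± 0.11 (SE, adjusted p = 0.366), Rpl3l, at 1.74 ± 0.59 (adjusted p = 0.370), and Rps7, at 0.37 ± 0.15 (adjusted p = 0.427). These p-values measure the spread between the 5 pairs of libraries. Rpl6l and Rps7 were among the 10 members that were higher in Zeb2KO in each of the 5 tissues, while 36 were higher in 4, 25 in 3, 13 in 2 and 1 in 1 of them. The same counts over all genes were not made, so nothing about the members is read from these.

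Across the 11 libraries most members followed the rest of the module. The Pearson correlation of a member's log2 level with the log2 summed level of the other members had a median of 0.76 over the 84 members of at least 20 CPM in every library, and 33 members reached 0.8. The other 3087 genes of that level had a median of -0.12, and 80 of them reached 0.8. The members that followed least were Rpl7l1 (-0.47), a paralog that acts in ribosome assembly, and Rps19bp1 (-0.19). None of the 11 short members reached 0.8, and their median was 0.57. The 11 points share tissues, and each level shares its library total, so these are descriptions. Over the WT tissues the narrowest ranges were those of Rpl5, from 564 to 727 CPM, Rpl30, from 899 to 1354 CPM, and Rpl13a, from 1767 to 2836 CPM. The widest among members of at least 20 CPM in every WT library were those of Rps27rt, Rplp0, Rps27l, Rpl41 and Rps28, with log2 ranges of 2.35 to 2.55.

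Among the paralogs, Rpl3l stood out by tissue. It was at 29.3 CPM in WT AMs (exact Poisson interval 27.3 to 31.4) and 23.7 CPM in Zeb2KO AMs (22.1 to 25.3), and at most 3.63 CPM in any other library. At least 1 Rpl3l UMI was found in 706 of 6974 WT AMs (10.1%) and 792 of 6252 Zeb2KO AMs (12.7%), and no order is read from these shares, since the median depths were 3587 and 5682 UMIs and the CPM had the opposite order. In WT microglia it was found in 0 of 2830 cells at a median depth of 4202 UMIs, with an exact upper limit of 0.130% for cells with a captured UMI, which does not limit the share of cells that express the gene. Rpl3l made up 4.02% of the UMIs of Rpl3 and Rpl3l in WT AMs and 2.42% in Zeb2KO AMs, where Rpl3 itself went from 699 to 954 CPM. The dividing AMs of lung cluster 5, with Ccna2 and Top2a among its leading genes, had fewer Rpl3l UMIs. They stood at 6.98 CPM in WT (3.01 to 13.8) and 7.70 CPM in Zeb2KO (4.40 to 12.5). Lung cluster 6, led by DNA replication genes such as Mcm6, did not share this low level. It had 35.2 CPM in WT (25.4 to 47.4) and 33.6 CPM in Zeb2KO (18.4 to 56.4).
Rpl3l also differed by genotype outside the lung, at low counts. In KCs it had 10 UMIs in WT (0.412 CPM), 10 in the Nr1h3fl/fl control (0.547 CPM) and 93 in Zeb2KO (3.63 CPM), a ratio of 8.80 between Zeb2KO and WT (exact 95% interval 4.58 to 19.0, counting error only). Of the 93, 70 UMIs came from 60 of the 1864 cells of Zeb2KO cluster 2, led by Siglecf and Ddit4, at 6.01 CPM. In CMs it had 12 UMIs in WT (0.277 CPM) and 67 in Zeb2KO (1.83 CPM), a ratio of 6.61 (3.55 to 13.4). There 48 UMIs came from 40 of the 740 cells of Zeb2KO cluster 5, the cluster with a high module share, at 6.93 CPM. SMs had 1 and 4 UMIs, and microglia 0 and 2. The clusters that held these UMIs were nearly absent from WT, and no replicate of either genotype was available.
Rpl39l went the other way in some tissues. It had 126 UMIs in WT KCs (5.20 CPM), 149 in Nr1h3fl/fl WT KCs (8.15 CPM) and 29 in Zeb2KO KCs (1.13 CPM), a ratio of 0.218 of Zeb2KO to WT (0.140 to 0.328). In CMs 95 UMIs in WT and 28 in Zeb2KO gave a ratio of 0.349 (0.220 to 0.537), but the 28 came from only 8 cells. In microglia the ratio was 1.93 (1.25 to 3.08), from 29 and 77 UMIs. AMs had 147 and 240 UMIs with a ratio of 1.20 (0.975 to 1.49), and SMs 21 and 2. Rpl10l, whose product is known from testis, had at most 2 UMIs in any library.

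The other paralogs formed steadier pairs. Rpl22l1 made up 34.6% of the UMIs of Rpl22 and Rpl22l1 in WT microglia and 34.4% in Zeb2KO microglia, 37.7% and 38.3% in CMs, 39.2% and 39.4% in KCs, 36.1% and 35.3% in AMs, and 37.9% and 36.2% in SMs. The Nr1h3fl/fl WT KCs, at 31.3%, lay below all of these. Rpl36al took between 29.3% (WT SMs) and 44.9% (Zeb2KO KCs) of its pair with Rpl36a, and was higher in Zeb2KO AMs (37.2% against 32.0%) and SMs (36.6% against 29.3%) but lower in Zeb2KO microglia (37.7% against 41.0%). Rpl7l1 took 10.8% and 9.26% of its pair with Rpl7 in WT and Zeb2KO microglia and at most 5.27% elsewhere, so both microglia libraries stood above all others. Rps27l, a p53 target, ranged from 8.29% in Zeb2KO microglia to 22.1% in WT AMs.
Rps27rt, a retrogene on chromosome 9, cannot be separated from Rps27 within the reading frame, since the 255 coding bases of Rps27 and Rps27rt are identical, and its counts depend on how reads near the end were assigned. Of the pair it took 19.5% in WT KCs, 14.2% in Zeb2KO KCs and 12.4% in the Nr1h3fl/fl control, so its lower level in Zeb2KO KCs held only against the first control. Rps27l differs from Rps27 at 61 of 255 coding bases (76.1% identity), shown in capitals in the second line.
Rps27 (chr3:90212522-90213651, minus strand): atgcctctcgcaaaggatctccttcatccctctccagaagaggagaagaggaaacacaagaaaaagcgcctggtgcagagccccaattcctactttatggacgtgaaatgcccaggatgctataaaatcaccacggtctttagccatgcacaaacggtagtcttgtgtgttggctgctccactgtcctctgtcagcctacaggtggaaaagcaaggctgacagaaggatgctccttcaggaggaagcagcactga
Rps27l (chr9:66946086-66949516, plus strand): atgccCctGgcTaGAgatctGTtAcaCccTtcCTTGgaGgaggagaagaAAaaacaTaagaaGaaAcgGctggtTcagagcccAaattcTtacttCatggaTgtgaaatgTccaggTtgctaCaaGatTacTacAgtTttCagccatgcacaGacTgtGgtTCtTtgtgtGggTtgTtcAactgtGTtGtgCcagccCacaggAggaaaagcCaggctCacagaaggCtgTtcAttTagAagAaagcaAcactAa

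**Figure D5:**
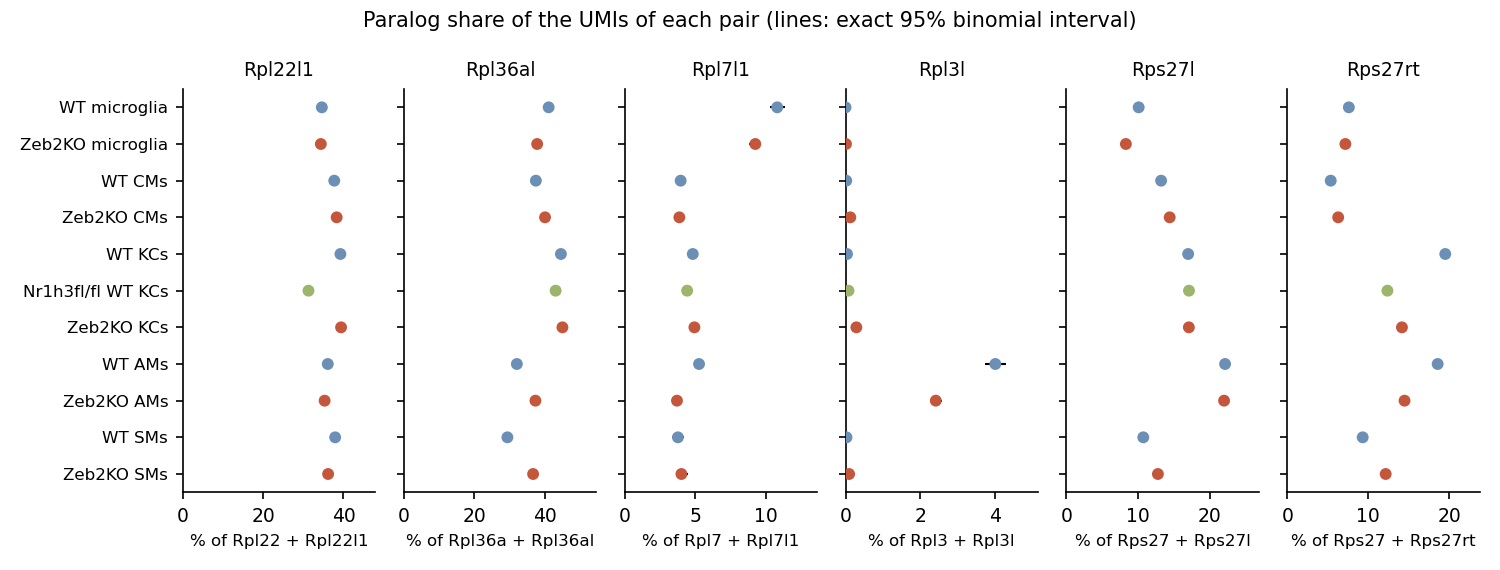
Each panel gives the paralog's share of the UMIs of a pair of genes (percent) in each library, with exact 95% binomial intervals as lines that are mostly narrower than the points. Blue is WT, red Zeb2KO and green the Nr1h3fl/fl control, and each panel has its own scale from 0, with Rpl3l reaching 4.02% in WT AMs and Rpl7l1 10.8% in WT microglia.

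Genes that work with the ribosome had medians of either sign. Of 17 translation partners encoded by TOP mRNAs, such as elongation factors, 13 were higher in Zeb2KO microglia (median log2 ratio 0.17), 16 in KCs (0.31), 10 in AMs (0.05), 8 in CMs (-0.012) and 5 in SMs (-0.09). Eef2, which moves the ribosome along, had log2 ratios of -0.25 in microglia and 0.37 in KCs, and Pabpc1, the poly(A)-binding protein, had -0.84 in AMs, where Eif3h, of initiation factor eIF3, had 0.52. Among 38 ribosome biogenesis genes, 30 were compared in microglia and 20 were lower (median -0.08, all genes -0.091). In AMs 22 of 27 were lower (median -0.52, all genes -0.31), with Ddx21, a nucleolar helicase, at -1.29 and Polr1c, a subunit of RNA polymerases I and III, at 0.42, while 21 of 26 were higher in KCs (0.18). In CMs 14 of 22 were higher (0.03), and in SMs 15 of 28 were lower (-0.03).
Initiation factors were nearly level, with medians between -0.16 in AMs and 0.075 in KCs. In AMs 8 of 27 were lower by a log2 ratio of 0.5 or more, beside the 34% of all genes given above. The 77 mitochondrial ribosomal proteins went against the cytosolic ones in SMs, where 54 of 62 were higher (median 0.20). In microglia 51 of 69 were lower (-0.090), at the level of all genes compared (-0.091). Their medians were 0.08 in CMs, 0.06 in KCs and -0.10 in AMs. Of 50 nuclear-encoded oxidative phosphorylation subunits, 46 were lower in KCs (median -0.22) and 47 were higher in SMs (0.29), with medians of -0.11 in microglia, 0.14 in CMs and -0.08 in AMs. In AMs, Atp5k, of ATP synthase, was at -1.04 and Ndufa3, of complex I, at -0.82, while Atp5j was at 0.27 and Ndufb11 at 0.35, and 18 of 50 were higher. Among the genotype contrasts, mitochondrially encoded genes had their highest median in microglia, at 0.52, where 12 of 12 were higher, and their lowest in SMs, at -0.24, where 13 of 13 were lower. CMs had 0.14, KCs 0.017 and AMs 0.053. Between the WT livers the median was 0.84, with 12 of 12 higher in Nr1h3fl/fl WT KCs, a larger median of this list than in any of the 5 genotype contrasts. The other lists had medians between the WT livers of -0.25 for ribosome biogenesis, -0.14 for mitochondrial ribosomal proteins, -0.11 for initiation factors, -0.019 for translation partners and 0.080 for oxidative phosphorylation.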

How the data were processed

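Single macrophages of 5 tissues were profiled in 11 libraries. The authors sequenced the libraries and made the deposited count tables of UMIs per gene and barcode with Cell Ranger against mm10, per the labels and methods; the values are raw counts of 27998 genes and no other column was used. KCs and AMs were run on another sequencer than the other macs, so instrument and tissue cannot be told apart, while the libraries of a pair share it. Barcodes beyond 3 median absolute deviations of UMIs, genes or mitochondrial share were dropped, and cells were clustered per tissue with scanpy 1.11.5 (2000 variable genes without the members, 30 components, 15 neighbours, resolution 0.8). Clusters that met a marker rule for another cell type were removed (spleen clusters 5 and 7, liver cluster 8 and colon cluster 13 did not meet it and were kept), and no doublet calls were applied. Clusters were called "-like" from marker lists.

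UMIs were summed per library and scaled to CPM. Log2 ratios used a pseudocount of 1 CPM and a floor of 20 CPM in the higher library. Shares have exact binomial and CPM exact Poisson 95% intervals, which cover counting error only. The 5 pairs were tested with edgeR 4.0.16 (quasi-likelihood, TMM, tissue block) and, as an alternative, DESeq2 1.42.0 (R 4.3.3). On simulated counts for these 5 pairs over 13960 genes, edgeR recovered 94.8% of genes changed by 2 on the log2 scale and 71.7% of those changed by 1. These counts were drawn with a fixed dispersion, the same for all genes and not estimated from these libraries. The change was the same in each tissue. Smaller changes, and changes that differ between tissues, were not simulated, so the rates do not carry over to such shifts of the members. Tissue is the pairing of the libraries; the labels give no replicate numbers. Lengths, coding sequences and positions come from GENCODE M21 (GRCm38) and start sites from RefSeq.

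The named members were, per contrast, the 3 highest and 3 lowest, the 3 with the lowest edgeR p, the 5 widest and 3 narrowest over WT tissues, the paralog pairs, and extremes of the other lists. Some items that this rule names are not reported here. Members and lists were chosen with earlier results of these data known. Alternatives covered cells, clusters, scaling, filters and controls.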

Additional observations from a re-analysis of the deposited data

Results flagged for a closer look

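The module share of UMIs moved in opposite directions between tissues under the same contrast. Its log2 ratio of Zeb2KO over WT was 0.26 in microglia, 0.22 in KCs and 0.077 in CMs, but -0.15 in SMs and -0.034 in AMs. Each value compares 1 library with 1 library, and the difference between tissues was not tested. Without brain cluster 2 the ratio was 0.16 in microglia, and without liver cluster 1 it was 0.0015 in KCs. Both clusters were led by haemoglobin genes, and that of the liver also by the KC genes Clec4f and Timd4. They held much of the WT library and few Zeb2KO cells, so unlike sets of cells were then compared. The sign in CMs turned without cluster 5 but not without clusters 5 and 7, where the shares were 15.7% in both libraries. Within the 10 colon clusters with at least 50 cells in both libraries, the module share was higher in Zeb2KO in 7. The leading genes of cluster 5 included Ms4a1, a mark by which the study identified CMs that had lost Zeb2. The sign in AMs turned when the 50 most abundant other genes were left out of the total and with TMM scaling. With 1 library per group, no library could be compared with replicates of its own group.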

How the results depend on the processing

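With 1 library per tissue and genotype, differences within a tissue carry no test, and depth limits Rpl3l, Rpl39l and Rpl10l. The module's log2 ratio changed direction in 3 cases. In CMs it was -0.0219 without cluster 5 (0.0023 without clusters 5 and 7), and in AMs 0.184 with TMM and 0.068 with the 50 most abundant other genes left out of the total. In SMs it kept its sign, at -0.255 without spleen cluster 5 and -0.293 without clusters 5 and 7. Without the haemoglobin-led brain cluster 2 it was 0.162 in microglia. Without liver cluster 1, which held most WT KCs, it was 0.00153 in KCs. TMM gave 0.336 for microglia, 0.0463 for CMs, 0.208 for KCs and -0.128 for SMs (these settings were chosen after seeing the data, except the 50 genes). Leaving out the 50 genes gave 0.279 for microglia, 0.0154 for CMs, 0.201 for KCs and -0.118 for SMs. The mean of per-cell shares gave 0.236 for microglia, 0.0722 for CMs, 0.180 for KCs, -0.00532 for AMs and -0.134 for SMs. Without mitochondrially encoded genes the ratios were 0.271 in microglia, 0.0826 in CMs, -0.0251 in AMs and -0.169 in SMs. All barcodes gave 0.0701 in CMs, -0.00724 in AMs and -0.140 in SMs, and the cell filter alone 0.0725 in CMs, 0.214 in KCs and -0.142 in SMs. Without the highest doublet scores it was 0.255 in microglia, 0.0728 in CMs and -0.0367 in AMs, without dividing clusters -0.155 in SMs, and against the Nr1h3fl/fl control 0.135 in KCs.

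Counts past a log2 ratio of 0.5 changed with TMM to 7 higher in microglia (11.6% of all genes), and to 24 higher and 7 lower in AMs (14.998% and 18.7% of all genes), where 0 were lower by 1 (3.92%). Against the Nr1h3fl/fl control, KCs had 19 higher and 7 lower (13.8% and 20.8% of all genes), and 1 higher past 1 (4.18%). With a floor of 5 CPM, KCs had 2 lower past 0.5 (6.24% of all genes) and 1 past 1 (1.40%). With no filter on low values, KCs had 2 lower past 0.5 (3.13%), 1 lower past 1 (0.600%) and 1 higher past 1 (1.76%). CMs then had 1 higher past 1 (0.636%) and 1 higher and 1 lower past 0.5 (2.33% and 1.74%), and SMs 1 lower past 0.5 (4.23%) and past 1 (0.789%). Rps27rt in KCs turned from -0.57 to 0.12 against the Nr1h3fl/fl control. The cause was not tested.

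The WT module share was 8.65% in microglia, 13.4% in KCs, 15.3% in AMs and 16.5% in SMs over all barcodes. Dividing the percent share of the kept WT cells by the TMM factor of the library gives a scaled level, not a share of UMIs. It was 7.74 for microglia, 19.1 for CMs, 14.1 for KCs, 14.5 for AMs and 11.7 for SMs. The unscaled share of the Nr1h3fl/fl control was 14.1%. The log2 ratio of the short members' share was -0.400 in KCs and -0.779 in AMs over all barcodes. Taking the shortest members by transcript length gave -0.370, -0.631, -0.0194 and 0.275 for KCs, AMs, SMs and the WT livers, a split chosen after seeing the data. Leaving out spleen cluster 7, colon cluster 13 and liver cluster 8, also chosen then, changed no direction.

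The tissue block pairs the libraries. With no replicate block, edgeR called 0 members, as it did with each pair left out in turn (0 to 0), and DESeq2 called 0. The interquartile ranges stayed within 1.5 times their values.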
